A study of Mus musculus with 6 samples.

Results

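The core planar cell polarity partners examined here are 10 genes that act with the Celsr cadherins: the Frizzled receptors Fzd3 and Fzd6, the Wnt receptor Ryk, the membrane proteins Vangl1 and Vangl2, and the cytoplasmic proteins Prickle1, Prickle2, Dvl1, Dvl2 and Dvl3. They were chosen by name, and all 10 were found among the 24841 genes listed. Nuclei were isolated from frozen, dissected mouse striatum, the input nucleus of the basal ganglia, and their RNA was profiled with the 10x Genomics 3′ chemistry. There were 3 wild type libraries and 3 libraries of mice heterozygous for Celsr3, which encodes an atypical cadherin of the same pathway. The labels name the replicates as biological and give no allele, strain, sex, age, litter or preparation batch. Nothing in them says that each library came from 1 animal, so p values measure the spread between these libraries.

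In planar cell polarity, Celsr cadherins join neighbouring cells and recruit Frizzled with Dishevelled (Dvl) on one side of a contact and Vangl with Prickle on the other. In the developing brain, Celsr3 and Fzd3 are known for guiding long axon tracts, and Ryk for turning axons in response to Wnt ligands. In ependymal cells the same proteins align the beating cilia.

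The table held 7735 to 8875 nuclei per library, and 47956 of 48834 nuclei were kept after 878 doublet-like nuclei were left out. Values are depth-corrected UMI (unique molecule) values, so a level below is a mean value per nucleus in a library and has no counting interval. Nuclei had a median of 2456 to 3011 genes by library, lowest in wild type 1. The mean of these medians was 2739 ± 248 for wild type and 2923 ± 78.9 for heterozygous libraries (SD, n = 3 each). Their difference had p = 0.4 (two-sided exact permutation test), and with 3 libraries a group this test cannot reach p under 0.05. Any pair of libraries shared 11 to 29 cell barcodes. Clustering without the 10 genes and without Celsr1, Celsr2 and Celsr3 gave 46 clusters, of which 31 were named into 17 classes by marker genes, 8 stayed unnamed with 6585 nuclei, and 7 were doublet-like. Medium spiny neurons (MSN), the projection neurons that define the striatum, were found by their markers, with 8482 D1 MSN-like nuclei (direct pathway markers such as Drd1) and 7098 D2 MSN-like nuclei (indirect pathway markers such as Drd2). Over all nuclei the mean of Celsr3 itself was 0.094 ± 0.0171 for wild type against 0.0653 ± 0.00405 for the heterozygous libraries (SD, n = 3 each), or 69.5%, and in D1 MSN-like nuclei 57%. Its libraries did not overlap between genotypes in either population, nor in D2 MSN-like (61.5%) or glutamatergic neuron-like nuclei (59.1%), but they did in GABAergic interneuron-like nuclei (90.7%). No Celsr3 difference passed the adjustment over all genes (limma, adjusted p from 0.145 to 0.978).

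The 10 genes differed far more between cell classes than between genotypes. Fzd6 was highest per nucleus in endothelial-like and mural-like nuclei, and Vangl1 and Fzd3 peaked in ependymal-like nuclei. Prickle2 was highest in oligodendrocytes and Prickle1 in glutamatergic neurons, while Ryk and the Dvl genes were spread over many classes. Levels could be given in 16 classes that held 10 or more nuclei per library, and orders of classes below are among these 16. Choroid plexus-like nuclei, the other named class, had 10 or more in only 3 libraries (wild type 1, wild type 2 and heterozygous 3). In these 3 their mean level of Dvl3, 0.474, was above that of any of the 16, for Fzd6 it was 0.418, place 4 of 17, and for Prickle2 0.534, place 17 of 17. From the highest to the lowest of the 16 means, Fzd6 varied 411-fold, Vangl1 153.5-fold, Prickle1 16.15-fold, Vangl2 12.5-fold, Prickle2 12.1-fold and Fzd3 10.2-fold. Dvl2 varied 6.78-fold, Dvl1 4.64-fold, Dvl3 3.47-fold and Ryk 3.325-fold. The largest folds have a class near 0 as their base and depend on it. Median genes per nucleus also differed between the named clusters, from 1753 to 3758.5. The part of depth in the differences between classes was not tested.

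**Figure D1:**
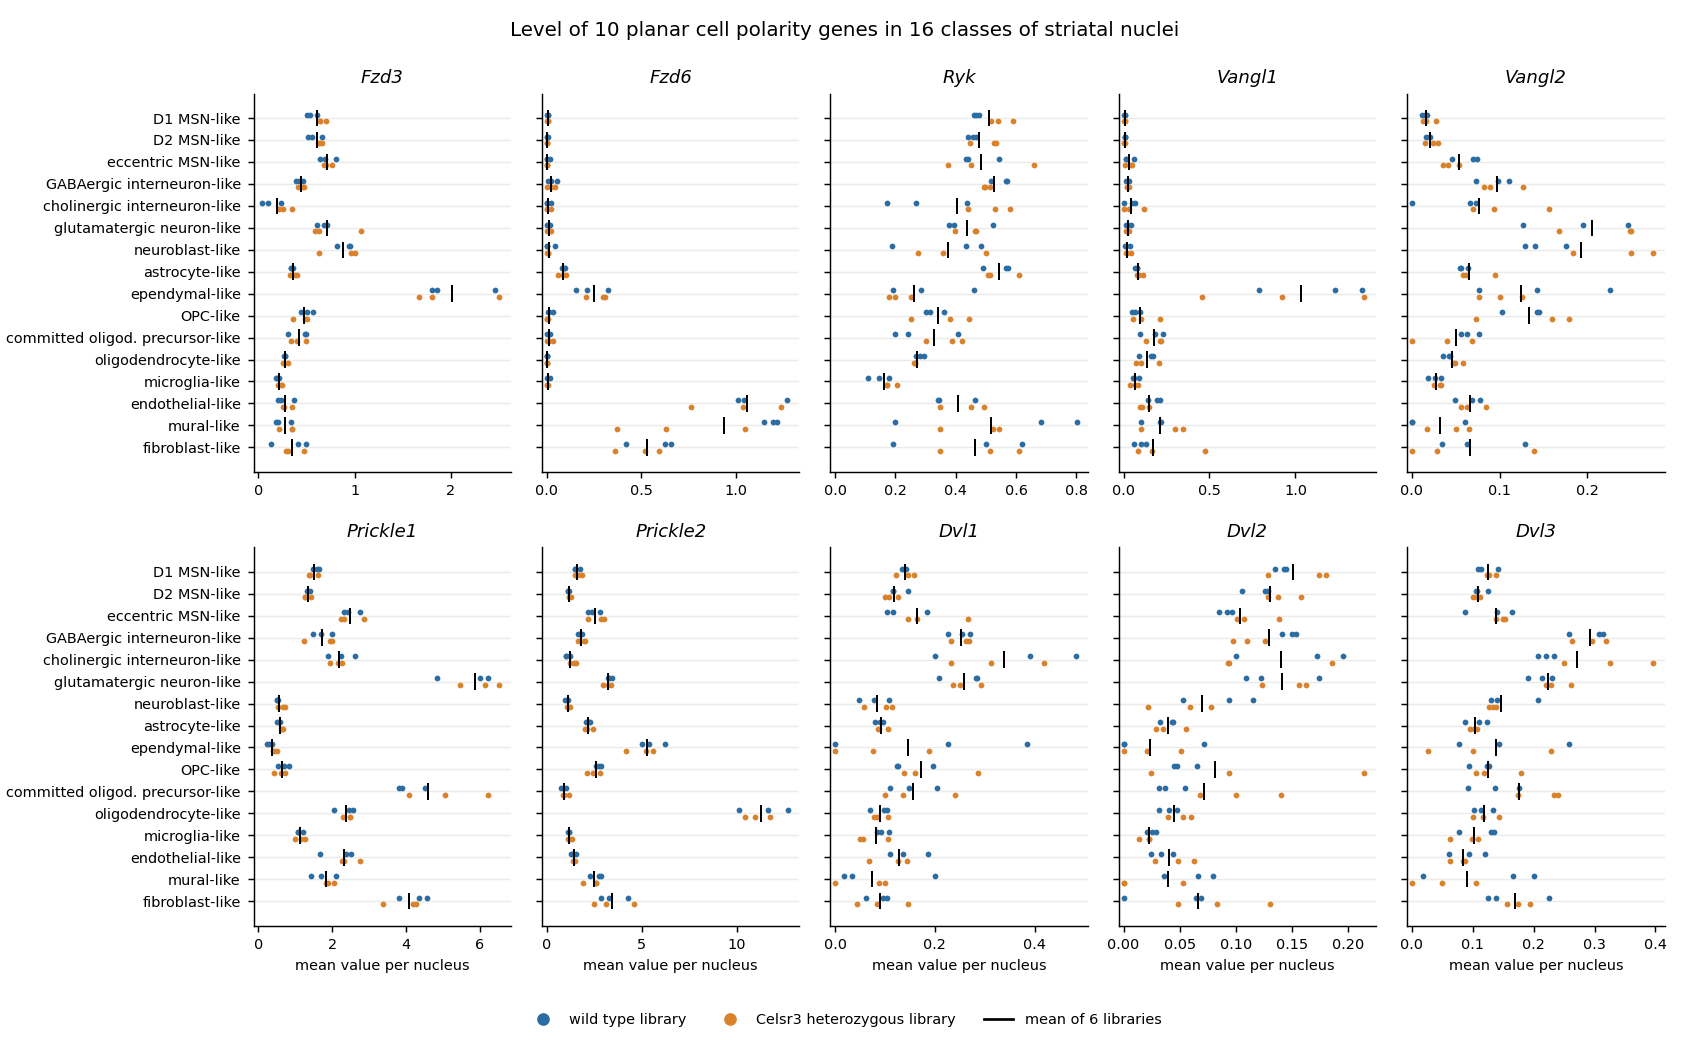
Mean value per nucleus (linear horizontal axes, a separate scale for each gene) of the 10 polarity genes in 16 classes, with 1 point per library, wild type in blue and Celsr3 heterozygous in orange, and a black line at the mean of 6 libraries. Fzd6 stands out in endothelial-like and mural-like nuclei (1.06 and 0.936), Vangl1 in ependymal-like nuclei (1.03) and Prickle2 in oligodendrocyte-like nuclei (11.3), while points of both colours mix in most rows.

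Among the receptors, Fzd3 was highest in ependymal-like nuclei, which line the ventricle, at 1.81, 1.86 and 2.46 in wild type 1 to 3 and 1.8, 1.67 and 2.5 in heterozygous 1 to 3. The lowest of these values exceeded the highest of any other class, although the class held only 10 to 48 nuclei per library. Neuroblast-like nuclei followed at 0.882 ± 0.14, then eccentric MSN-like at 0.714 ± 0.0595 and glutamatergic neuron-like nuclei at 0.713 ± 0.177 (SD, n = 6), where heterozygous 2 stood alone at 1.06 with 96 nuclei. The D1 and D2 MSN-like classes were level with each other at 0.607 ± 0.0717 and 0.608 ± 0.0602 (SD, n = 6). The limma difference between them was -0.0045 ± 0.03 on the log2 scale (SE, adjusted p = 0.928). In contrasts of classes, MSN-like means the average of the D1 and D2 MSN-like classes, without eccentric MSN-like nuclei. GABAergic interneuron-like nuclei had less Fzd3 than MSN-like nuclei, by a log2 difference of -0.46 ± 0.08 (SE, limma, adjusted p = 0.000406). Cholinergic interneuron-like nuclei stood last at 0.198 ± 0.114 (SD, n = 6). Within the GABAergic class the clusters were unlike: cluster 30, led by Nos1, Npy and Sst, averaged 0.797, against 0.435 in cluster 21 and 0.279 in cluster 24.

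Fzd6 had a vascular pattern. In endothelial-like nuclei its level was 1.01, 1.04 and 1.27 in wild type and 1.24, 0.764 and 1.04 in heterozygous 1 to 3, and in mural-like nuclei (pericytes and smooth muscle) it averaged 0.936 ± 0.352 (SD, n = 6). Fibroblast-like nuclei followed at 0.529 ± 0.118, ependymal-like at 0.251 ± 0.0683 and astrocyte-like at 0.0864 ± 0.0147 (SD, n = 6). Each of these steps from fibroblast-like down to the next class was seen in 6 of 6 libraries. In the other 11 classes the mean of Fzd6 was 0.0248 or less, with 0.00521 and 0.00299 in the D1 and D2 MSN-like classes and the lowest level, 0.00258, in oligodendrocyte-like nuclei. Endothelial-like nuclei supplied 42.4% ± 7.05 of the summed Fzd6 value of a library (SD, n = 6), although they were 1.54% to 2.33% of its nuclei. Astrocyte-like nuclei, 9.84% to 12.1% of the nuclei, came second at 18.7% ± 4.51. Mural-like nuclei supplied 11.1% and unnamed clusters 9.1% ± 8.13 (SD, n = 6). Endothelial-like and mural-like nuclei did not pass the test of their difference in Fzd6 (log2 0.28 ± 0.12 SE, limma, adjusted p = 0.0966), and passed it without heterozygous 1 (0.38, adjusted p = 0.0318).

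Ryk was the most even of the 10. Its highest level was in astrocyte-like nuclei, at 0.489, 0.573 and 0.567 in wild type and 0.61, 0.514 and 0.509 in heterozygous 1 to 3. GABAergic interneuron-like nuclei stood next at 0.527 ± 0.0334, and the D1 and D2 MSN-like classes were at 0.509 ± 0.0505 and 0.479 ± 0.0406 (SD, n = 6). The ranges of these 4 classes over libraries overlapped, and Ryk passed in none of the 5 contrasts of classes in which it was tested. It was called for OPC-like minus oligodendrocyte-like nuclei without heterozygous 1, which holds 28 OPC-like nuclei (log2 0.41, limma, adjusted p = 0.00413, against 0.30 and 0.056 with all libraries), and with doublet-like nuclei kept (adjusted p = 0.0489). For glutamatergic neuron-like minus MSN-like nuclei it was called without wild type 2 (-0.25, limma, adjusted p = 0.0253, against -0.17 and 0.0929). Oligodendrocyte-like nuclei were lower at 0.273 ± 0.0132 and microglia-like nuclei lowest at 0.164 ± 0.0324 (SD, n = 6).

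The Vangl genes, whose membrane proteins oppose Frizzled across a contact, were both scarce in D1 and D2 MSN-like nuclei. Eccentric MSN-like nuclei averaged more, at 0.0326 ± 0.022 for Vangl1 and 0.0534 ± 0.0157 for Vangl2 (SD, n = 6). Vangl1 was highest in ependymal-like nuclei, at 1.39, 0.786 and 1.23 in wild type and 1.4, 0.923 and 0.458 in heterozygous 1 to 3. These values overlapped between genotypes and all exceeded the next class, mural-like nuclei at 0.213 ± 0.101 (SD, n = 6), within their libraries. In heterozygous 3 fibroblast-like nuclei stood above them at 0.472, although that class averaged 0.17 ± 0.152 (SD, n = 6). Committed oligodendrocyte precursor-like nuclei averaged 0.18 ± 0.0544 and oligodendrocyte-like nuclei 0.134 ± 0.0533, against 0.00723 ± 0.00274 in D1 MSN-like nuclei (SD, n = 6). Oligodendrocyte-like nuclei supplied 30% ± 6.55 of the summed value of Vangl1 and unnamed clusters 26.9% ± 13 (SD, n = 6). The share of the unnamed clusters ran from 4.06% to 40% by library. Astrocyte-like nuclei supplied 13.4%, and ependymal-like nuclei, under 1% of all nuclei, 4.13%.

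Vangl2 had another distribution. It was highest in glutamatergic neuron-like nuclei, at 0.127, 0.246 and 0.195 in wild type and 0.168, 0.25 and 0.249 in heterozygous 1 to 3, and in neuroblast-like nuclei at 0.192 ± 0.0585 (SD, n = 6). OPC-like nuclei (oligodendrocyte precursors) followed at 0.134 ± 0.0388, and the D2 and D1 MSN-like classes closed the order at 0.0208 ± 0.00521 and 0.0164 ± 0.00561 (SD, n = 6). Glutamatergic neuron-like nuclei, first for Vangl2, were at 0.0252 for Vangl1, place 12 of 16, and the D1 and D2 MSN-like classes held the last places for both genes.

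Prickle1 and Prickle2, LIM-domain proteins that work with Vangl, were the 2 genes of highest summed value. That ranking is not corrected for length. The genes were also compared per 100 kb of gene span, a scaling that 3′ counts need not follow and that was not tested. On this scale Prickle1 averaged 1.97 ± 0.192 over all nuclei, Dvl1 1.19 ± 0.115 and Prickle2 1.08 ± 0.0827 (SD, n = 6). Fzd6 and Vangl1 were lowest on it, at 0.167 ± 0.0433 and 0.151 ± 0.052 (SD, n = 6). Prickle2 spans 335 kb of chromosome 6 and Prickle1 97.2 kb of chromosome 15.

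The promoters of Prickle1 and Prickle2 are shown because these 2 genes carry the contrast along the oligodendrocyte lineage described below. RefSeq sequences (GRCm38.p6, 250 bases before to 50 after a start) were found for 7 of the 10 genes: Prickle1, Prickle2, Vangl2, Ryk, Dvl1, Dvl2 and Dvl3. Capitals mark the motifs searched on both strands, which were ACAAAG (the core of SOX sites), CAGCTG (an E-box), GGGCGG (a GC box) and CCAAT, with each copy or its reverse complement in capitals and overlapping copies counted separately. The annotated spans of Prickle1 and Prickle2 reach to 93596266 and 92706334, further out than any of their starts with a sequence. The outermost start with a sequence of each gene, on the minus strand at chr15:93595853-93596152 and chr6:92706135-92706434, reads 5′ to 3′ as follows.
Prickle1: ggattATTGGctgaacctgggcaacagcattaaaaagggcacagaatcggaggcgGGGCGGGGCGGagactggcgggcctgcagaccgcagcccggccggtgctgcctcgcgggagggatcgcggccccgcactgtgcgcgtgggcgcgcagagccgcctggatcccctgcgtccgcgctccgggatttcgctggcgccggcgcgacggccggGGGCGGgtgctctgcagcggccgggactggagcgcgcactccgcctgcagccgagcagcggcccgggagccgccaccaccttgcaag
Prickle2: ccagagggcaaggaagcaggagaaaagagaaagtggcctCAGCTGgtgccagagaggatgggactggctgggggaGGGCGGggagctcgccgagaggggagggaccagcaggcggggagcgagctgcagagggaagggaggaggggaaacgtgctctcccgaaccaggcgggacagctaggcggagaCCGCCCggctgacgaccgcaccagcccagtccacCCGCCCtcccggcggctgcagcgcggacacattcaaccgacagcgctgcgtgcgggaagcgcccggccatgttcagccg

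Both windows were rich in CpG, with 39 in Prickle1 and 25 in Prickle2 against a median of 7 over 32851 promoters of this length. Each held 3 GC boxes, which 35.7% of all promoters hold at least once, Prickle1 held 1 CCAAT (37.4%) and Prickle2 1 E-box (16.3%), and neither held ACAAAG (18.7%). Prickle2 has 3 further starts in the table, and 1 of them, at chr6:92567317-92567616, held 2 copies of ACAAAG and 4 CpG. The other 2 had no ACAAAG, with 7 and 5 CpG, and the second held 3 E-boxes and 2 CCAAT. The further start of Prickle1 had 20 CpG, 2 GC boxes and no ACAAAG. The 3′ chemistry does not show which start was used in any class.

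Prickle1 was highest in glutamatergic neuron-like nuclei, at 4.83, 6 and 6.22 in wild type and 5.46, 6.15 and 6.53 in heterozygous 1 to 3. Its libraries mixed between genotypes. Against MSN-like nuclei the log2 difference was 2.03 ± 0.09 (SE, limma, adjusted p = 4.09e-07). In 3 of the 4 clusters of this class Prickle1 ranged from 3.78 in cluster 28 to 7.22 in cluster 15, and the remaining one, cluster 38 with 83 nuclei, was too small for a level in each library. Astrocyte-like nuclei had less Prickle1 than MSN-like nuclei (0.596 ± 0.0564, SD, n = 6, log2 difference -1.25 ± 0.06 SE, limma, adjusted p = 2e-08), and ependymal-like nuclei had least at 0.363 ± 0.0948 (SD, n = 6).

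Prickle2 was highest in oligodendrocyte-like nuclei, at 10.1, 12.7 and 11.7 in wild type and 10.4, 11 and 11.8 in heterozygous 1 to 3. All of these values exceeded the highest value of every other class. This class, 12.1% to 24.7% of the nuclei of a library, supplied 53.7% ± 8.39 of the summed Prickle2 value (SD, n = 6). Ependymal-like nuclei followed at 5.26 ± 0.667 and fibroblast-like at 3.44 ± 0.823, and committed oligodendrocyte precursor-like nuclei stood last of the 16 at 0.931 ± 0.154 (SD, n = 6).

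Along the oligodendrocyte lineage the class means of the 2 Prickle genes ran in opposite directions. From OPC-like to committed precursor-like nuclei Prickle1 was 7.235-fold higher and Prickle2 2.79-fold lower, each in 6 of 6 libraries. From committed precursor-like to oligodendrocyte-like nuclei Prickle1 was 1.93-fold lower and Prickle2 12.1-fold higher as class means, again in 6 of 6 libraries. The oligodendrocyte-like clusters were not alike in this, and cluster 16 had more Prickle1 than the committed precursors in 5 of 6 libraries, all but heterozygous 1. The ratio of Prickle2 to Prickle1, not corrected for length, was 2.95 to 6.53 in OPC-like, 0.15 to 0.289 in committed precursor-like and 4.41 to 4.95 in oligodendrocyte-like libraries, so the committed precursors stood apart without overlap. There were 30 to 103 committed precursor-like and 28 to 288 OPC-like nuclei per library, heterozygous 1 having the fewest of both. The steps through the committed precursors were singled out after their values were seen and carry no test. OPC-like minus oligodendrocyte-like nuclei was a contrast of the design, and Prickle2 (log2 difference -2.12 ± 0.11 SE) and Prickle1 (-1.92 ± 0.15) were both lower in OPC-like nuclei (limma, adjusted p = 5.18e-08 and 7.87e-07), while Fzd3 was higher (0.76 ± 0.11, adjusted p = 0.000123). That made 3 of 4 genes tested, beside 58.4% of all genes tested in this contrast (40.4% higher and 18% lower in OPC-like nuclei), a background that includes the genes that defined the clusters.

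The 3 oligodendrocyte-like clusters stood apart in Prickle1, while their libraries overlapped in Prickle2. Cluster 16 had Prickle1 at 7.42, 6.16 and 5.76 in wild type and 5.97, 7.63 and 6 in heterozygous 1 to 3, cluster 1 averaged 2.31 ± 0.089 and cluster 6 0.84 ± 0.0516 (SD, n = 6). No library of one cluster overlapped with those of another. Vangl1 had the same order at 0.453 ± 0.105, 0.125 ± 0.0525 and 0.026 ± 0.0179, while Prickle2 was at 10.9 ± 1.31, 11.1 ± 0.929 and 11.7 ± 1.02 (SD, n = 6). Beside these values, the 9 oligodendrocyte markers summed to 133 ± 7.63, 102 ± 12.6 and 113 ± 15.3 in clusters 16, 1 and 6, and the 7 committed precursor markers to 5.26 ± 0.355, 4.75 ± 0.416 and 6.18 ± 0.633, far below the 58.2 ± 3.67 of committed precursor-like nuclei (SD, n = 6). The nuclei of these clusters had a median of 2442, 1799 and 1962 genes, and the part of depth in the differences was not tested. The comparison of clusters was made after their values were seen.

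**Figure D2:**
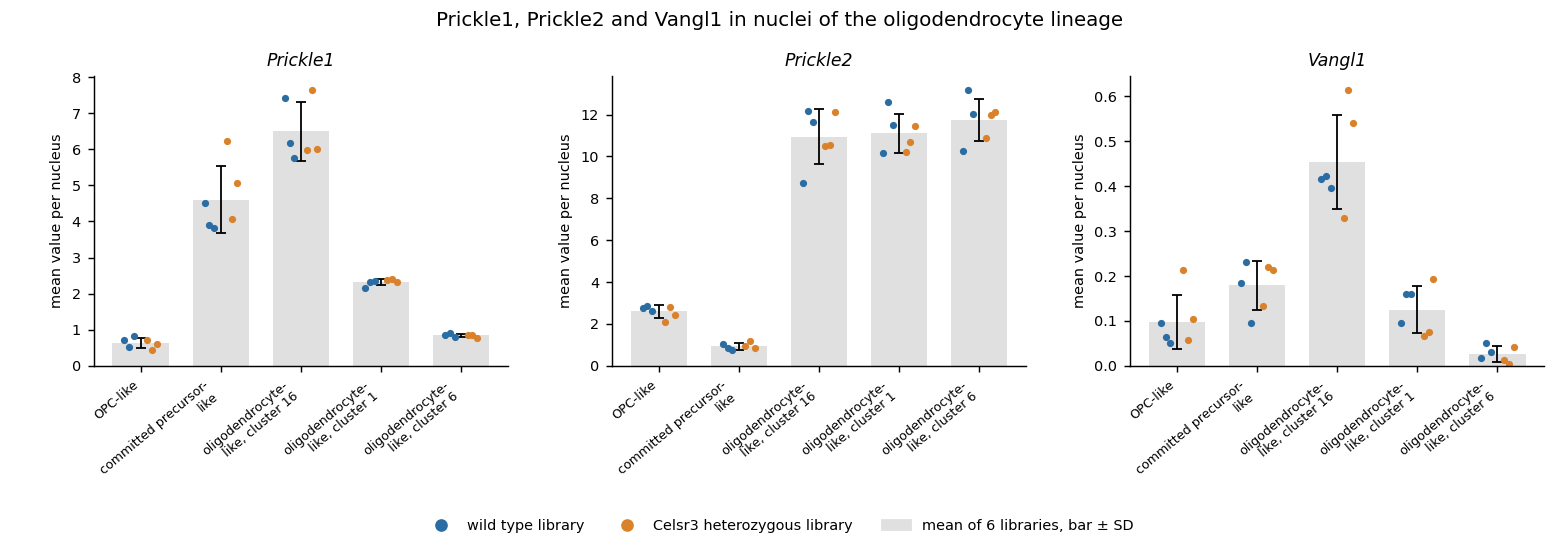
Mean value per nucleus (vertical axes from 0) of Prickle1, Prickle2 and Vangl1 in OPC-like, committed precursor-like and 3 clusters of oligodendrocyte-like nuclei, with 1 point per library, wild type in blue and Celsr3 heterozygous in orange, and bars for the mean of 6 libraries with the SD. Prickle1 peaks in cluster 16 (6.49) and is low in OPC-like nuclei (0.636), Prickle2 is lowest in committed precursor-like nuclei (0.931) and level over the 3 oligodendrocyte-like clusters, and Vangl1 peaks in cluster 16 (0.453).

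The Dishevelled genes, which carry the Frizzled signal inside the cell, had their highest levels among the 16 classes in neuronal ones. Median genes per nucleus were 3758.5 in the cholinergic interneuron-like cluster, 2799 in the choroid plexus-like and 1753 in the mural-like one. The part of depth in the Dishevelled levels was not tested. Dvl1 was highest in cholinergic interneuron-like nuclei at 0.339 ± 0.11, then glutamatergic neuron-like at 0.259 ± 0.0328 and GABAergic interneuron-like nuclei at 0.252 ± 0.019 (SD, n = 6). Among the 16, Dvl3 was highest in GABAergic interneuron-like nuclei, at 0.259, 0.314 and 0.307 in wild type and 0.295, 0.264 and 0.319 in heterozygous 1 to 3. In choroid plexus-like nuclei it was at 0.339 and 0.611 in wild type 1 and 2 and 0.473 in heterozygous 3, above all of these values. Both exceeded MSN-like nuclei in GABAergic interneuron-like nuclei, Dvl3 by 1.25 ± 0.07 and Dvl1 by 0.92 ± 0.06 log2 (SE, limma, adjusted p = 1.98e-07 and 6.38e-07). Both were also higher in glutamatergic neuron-like than in MSN-like nuclei, by 0.88 ± 0.07 for Dvl3 and 0.95 ± 0.08 for Dvl1 (SE, limma, adjusted p = 8.43e-06 and 7.74e-06).

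Dvl2 was arranged otherwise. D1 MSN-like nuclei were highest at 0.135, 0.143 and 0.145 in wild type and 0.129, 0.174 and 0.18 in heterozygous 1 to 3, and glutamatergic neuron-like nuclei were close at 0.141 ± 0.0262 (SD, n = 6). The levels of Dvl2 in D1 MSN-like, glutamatergic, cholinergic, D2 MSN-like and GABAergic classes, 0.13 to 0.151, lay within each other's spread. Astrocyte-like nuclei had less than MSN-like nuclei (0.0399 ± 0.00947, SD, n = 6, log2 difference -1.60 ± 0.09 SE, limma, adjusted p = 8.06e-08), and microglia-like nuclei had least at 0.0222 ± 0.00516 (SD, n = 6). The protein-coding gene Acadvl overlaps Dvl2 on the other strand and averaged 0.0523 over all nuclei against 0.0946 for Dvl2, and whether they shared reads was not tested. Cell Ranger, which the submitters' processing notes name, counts by strand by default, and its settings are not given in the sources used here.

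Read as a group, the genes that passed in each class contrast were as follows, with counts set beside the share of all genes tested that passed. D1 MSN-like nuclei had more Prickle2 (0.44 ± 0.05 log2, adjusted p = 0.000503), Dvl1 (0.24 ± 0.05, adjusted p = 0.0151) and Prickle1 (0.17 ± 0.04, adjusted p = 0.0164) than D2 MSN-like nuclei (SE, limma), which made 3 of 7 genes against 30.3% of all genes (23.7% higher and 6.6% lower in D1). The call of Prickle1 was lost without wild type 2 (adjusted p = 0.0547) or heterozygous 3 (adjusted p = 0.0501). Dvl2 was called without heterozygous 1 (0.26, limma, adjusted p = 0.0212, against 0.19 and 0.0641 with all libraries). Dvl3 was called without wild type 3 (0.23, limma, adjusted p = 0.032, against 0.18 and 0.0641). The Prickle2 difference was uneven within D1 MSN-like nuclei, whose cluster 3 averaged 2.2 ± 0.2, cluster 2 1.36 ± 0.0742 and cluster 12 0.943 ± 0.0963 (SD, n = 6). D2 MSN-like clusters ran from 1.1 in cluster 0 to 1.73 in cluster 23, so the 2 classes overlapped at the level of clusters.

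Glutamatergic neuron-like nuclei exceeded MSN-like nuclei in 4 of 7 genes (Prickle1, Prickle2, Dvl1 and Dvl3) against 67.8% of all genes (48.6% higher, 19.3% lower), and GABAergic interneuron-like nuclei differed in 5 of 7, 4 higher and 1 lower, against 72.8% (51.3% higher, 21.4% lower). In the latter, Prickle1 (0.25 ± 0.10, adjusted p = 0.0384) was no longer called without wild type 2, wild type 3, heterozygous 1 or heterozygous 3, at adjusted p from 0.0808 to 0.137, or without the filter on low values (0.116). Astrocyte-like nuclei differed from MSN-like nuclei in 6 of 7 genes against 88% of all genes (22.4% higher, 65.6% lower), with 5 lower and only Prickle2 higher (0.66 ± 0.06, adjusted p = 1.31e-06). The astrocyte difference in Dvl3 (-0.16 ± 0.06, adjusted p = 0.0328) was lost in 4 of the 6 fits without 1 library, those without wild type 1, wild type 2, heterozygous 1 or heterozygous 2 (adjusted p from 0.0732 to 0.0982), and without the filter (0.051). Endothelial-like nuclei had less Prickle2 than mural-like nuclei (-0.81 ± 0.12, adjusted p = 0.000251), 1 of 3 genes tested against 44.7% of all genes (20.2% higher, 24.5% lower). This call was lost without the filter on low values (adjusted p = 0.0532). All these are limma differences in log2 with their SE.

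Neighbours in the order of classes were compared within the 6 libraries by an exact two-sided sign-flip permutation test. Of 150 neighbour pairs over the 10 genes, 17 had the higher class higher in 6 of 6 libraries (exact p = 0.0312, the smallest that 6 libraries allow, adjusted p = 0.276 over the 150 pairs). The classes were ordered by the means of the same libraries, and no pair passed the adjustment; the counts are a description. These included the first steps of Fzd3, Vangl1 and Prickle2, that is ependymal-like above neuroblast-like, ependymal-like above mural-like and oligodendrocyte-like above ependymal-like nuclei. For Ryk, Dvl2, Dvl3 and Vangl2 no neighbouring classes differed in all 6 libraries.

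Across the 14 tested classes, each of 20 or more nuclei per library, Dvl1 and Dvl3 had the most alike levels of any 2 of the 10 genes (Pearson r = 0.839 of log2 levels, 14 classes), and Vangl1 and Dvl2 the most unlike (r = -0.715, 14 classes). Classes share libraries, and these correlations are descriptions. The gene most like Fzd6 was Osmr (r = 0.97), most like Dvl2 Pcdhb17 (0.978), most like Dvl1 Iars2 (0.959) and most like Dvl3 Zfp426 (0.95). For Vangl1 it was Lamp1 (0.916), for Fzd3 Rcor2 (0.904), for Vangl2 Fbln2 (0.885) and for Ryk Dzip1l (0.871). Prickle1 and Prickle2 had the least close partners, Slc30a4 (0.827) and Cdc42bpa (0.82), among 15733 genes compared over 14 classes.

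The genotype comparison asked whether the partners of Celsr3 differed between wild type and Celsr3 heterozygous libraries, whose allele the labels do not give. None of them passed in any population. Of 89 pairs of gene and population tested in all nuclei and 14 classes, limma called 0 at an adjusted p under 0.05, and the smallest adjusted p was 0.416. The share of all genes called was 0% in all nuclei, 0.0149% and 0.00786% in the D1 and D2 MSN-like classes and 0.00871% in glutamatergic neuron-like nuclei. At an unadjusted p under 0.05 there were 5 pairs: Fzd3 and Vangl2 in all nuclei (9.86% of all genes there), Fzd3 and Ryk in D1 MSN-like nuclei (9.69%) and Fzd6 in mural-like nuclei (5.16%). No member had such a p in the other 12 classes, beside 8.61% of all genes in D2 MSN-like, 6.47% in GABAergic, 6.27% in committed precursor-like, 6.26% in astrocyte-like and 5.51% in glutamatergic nuclei. The share was 5.5% in cholinergic, 5.49% in microglia-like, 5.37% in oligodendrocyte-like, 5.1% in eccentric MSN-like, 4.56% in neuroblast-like, 4.07% in OPC-like and 3.18% in endothelial-like nuclei. Filters on low values kept all 10 genes in all nuclei, 7 in the D1 and D2 MSN-like classes (not Fzd6, Vangl1 or Vangl2) and 2 to 10 in the other classes.

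In all nuclei Fzd3 was at 0.471, 0.455 and 0.432 in wild type and 0.497, 0.523 and 0.522 in heterozygous 1 to 3. The 3 heterozygous libraries lay above all wild type ones, by 0.18 ± 0.07 log2 (SE, limma, adjusted p = 0.481). The difference was 0.11 with size factors, 0.10 with every class weighted equally and 0.24 with library weights (limma, adjusted p = 0.785, 0.844 and 0.0914). Vangl2 was at 0.0518, 0.048 and 0.0649 in wild type and 0.0674, 0.0661 and 0.0888 in heterozygous 1 to 3, a difference of 0.37 ± 0.15 log2 (SE, limma, adjusted p = 0.488). These groups did not overlap either, although wild type 3 and heterozygous 2 nearly met. Over all nuclei, more nuclei of a class and more RNA per nucleus cannot be told apart. Unnamed clusters supplied 26.8% of the summed Vangl2 value, and they made up 11.4% ± 4.43 of wild type and 15.8% ± 4.34 of heterozygous nuclei (SD over 3 libraries each). The Vangl2 difference was 0.25 log2 without heterozygous 3, 0.25 with every class weighted equally and 0.17 with library weights (limma, adjusted p = 0.535, 0.729 and 0.422).

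Ryk and Dvl2 were the other genes whose heterozygous libraries all lay higher in all nuclei. Ryk was at 0.372, 0.418 and 0.413 in wild type and 0.446, 0.465 and 0.431 in heterozygous 1 to 3 (0.15 ± 0.07 log2, SE, limma, adjusted p = 0.513). Dvl2 was at 0.0746, 0.0931 and 0.0963 in wild type and 0.101, 0.103 and 0.0988 in heterozygous 1 to 3 (0.19 ± 0.11 log2, SE, limma, adjusted p = 0.539). Without wild type 1, the lowest library, the Dvl2 difference was 0.09 and the Ryk difference 0.10, and with equal class weights they were 0.07 and 0.11 log2. In all, 4 of 10 genes had all heterozygous libraries higher, as had 14.7% of all genes tested, and none had all lower (4.47% of all genes). The median difference of the 10 genes was 0.10 log2, with 7 higher and 3 lower, against a median of 0.07 over all genes.

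In all nuclei Prickle2 was lower in heterozygous libraries (3.22, 3.52 and 3.63 against 4.05, 3.53 and 3.76, -0.13 ± 0.09 log2, SE, limma, adjusted p = 0.593), with overlap. Oligodendrocyte-like nuclei, its main source, made up 19.6% ± 4.34 of wild type and 15.3% ± 2.83 of heterozygous nuclei (SD over 3 libraries each). These shares overlapped, at 24.6%, 17% and 17.2% in wild type and 12.1%, 16.2% and 17.5% in heterozygous 1 to 3. Within these nuclei the Prickle2 difference was -0.05 ± 0.11 log2 (SE, limma, adjusted p = 0.996). The part of the class shares in the difference over all nuclei was not tested. Fzd6, with the second largest difference in size, was lower on average (0.0697, 0.054 and 0.0582 in wild type, 0.0563, 0.0277 and 0.0555 in heterozygous 1 to 3, -0.36 ± 0.23 log2, SE, limma, adjusted p = 0.573), with overlap. Without heterozygous 2 the Fzd6 difference was -0.0936. It was -0.50 without heterozygous 1, -0.49 without heterozygous 3 and -0.54 with library weights (limma, adjusted p = 0.479, 0.518 and 0.166). Vangl1 in all nuclei ranged from 0.0351 in heterozygous 1 to 0.119 in heterozygous 3, which enclosed all wild type values, and its difference turned from -0.13 to 0.28 log2 without heterozygous 1.

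**Figure D3:**
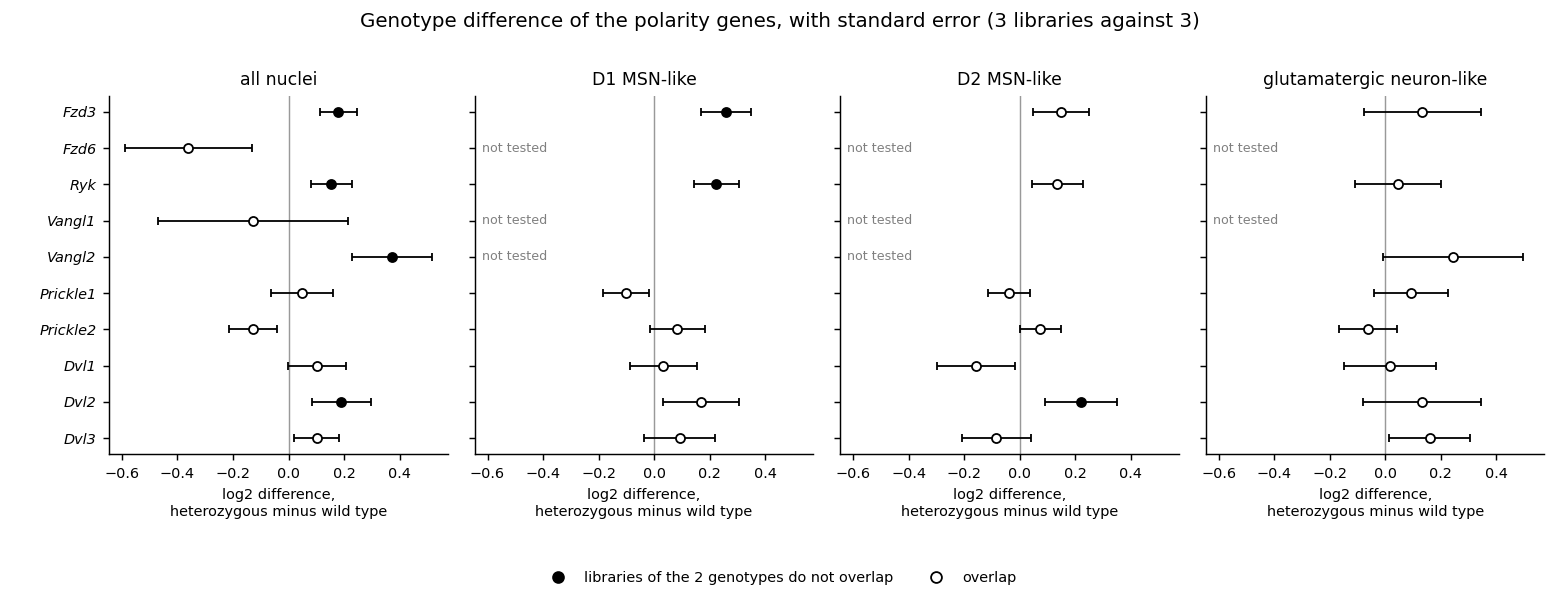
Log2 difference, heterozygous minus wild type (horizontal axes, points with standard error bars, 3 libraries against 3), of the 10 genes in all nuclei and 3 neuronal classes, filled where the libraries of the genotypes did not overlap. Fzd3 and Ryk in D1 MSN-like nuclei (0.26 and 0.22) and Vangl2 in all nuclei (0.37) are among the filled points right of 0, and no point passed the adjustment over all genes.

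In D1 MSN-like nuclei Fzd3 was at 0.613, 0.535 and 0.509 in wild type and 0.643, 0.7 and 0.64 in heterozygous 1 to 3, or 120% of wild type by the means. Its difference of 0.26 ± 0.09 log2 did not pass (SE, limma, adjusted p = 0.416), and over its alternatives the adjusted p ran from 0.0405 with library weights estimated by limma to 0.909. Ryk in D1 MSN-like nuclei was at 0.468, 0.461 and 0.476 in wild type and 0.518, 0.591 and 0.54 in heterozygous 1 to 3 (0.22 ± 0.08 log2, SE, limma, adjusted p = 0.42). Here the wild type libraries lay closely together and the heterozygous ones all above them, as they did for Ryk in each of the 3 D1 MSN-like clusters. Fzd3 separated the genotypes in 1 of the 3, cluster 3. The 2 genes whose libraries did not overlap are 2 of 7 tested, beside 11% of all genes with heterozygous libraries higher. The marker sums of astrocytes, glutamatergic neurons and oligodendrocytes in D1 MSN-like nuclei overlapped between genotypes. Median genes per D1 MSN-like nucleus were 3398, 3343 and 3320 in wild type and 3275, 3499 and 3485 in heterozygous 1 to 3. The part of depth in the Fzd3 and Ryk values was not tested. Ryk and Celsr3 lie on the same chromosome, 9, with 5.99 Mb between their starts and 126 listed genes between them. Whether their positions bear on the Ryk values was not tested, and the labels give no allele or strain.

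In D2 MSN-like nuclei the same 2 genes overlapped between genotypes, with Fzd3 at 0.15 ± 0.10 and Ryk at 0.14 ± 0.09 log2 (SE, limma, adjusted p = 0.723 and 0.724). Dvl2 was the gene without overlap there (0.105, 0.128 and 0.126 in wild type, 0.138, 0.129 and 0.158 in heterozygous 1 to 3), 1 of 7 beside 9.26% of all genes. Its difference was 0.22 ± 0.13 log2 (SE, limma, adjusted p = 0.688), and the genotypes separated in 1 of the 3 D2 MSN-like clusters, cluster 0. In cluster 10 the heterozygous libraries were low instead, with overlap (0.0887, 0.105 and 0.0851 against 0.108, 0.116 and 0.0905 in wild type), and in cluster 23 the libraries were mixed. The genotype difference was also compared directly between the D1 and D2 MSN-like classes, and 0 of 7 genes passed, as did 0% of 12676 genes. Without adjustment 679 genes (5.36%) had a p under 0.05, and the 7 genes had p from 0.113 to 0.918. For Fzd3 the difference between the 2 classes was 0.11 ± 0.06 log2 (SE, limma, adjusted p = 0.926).

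**Figure D4:**
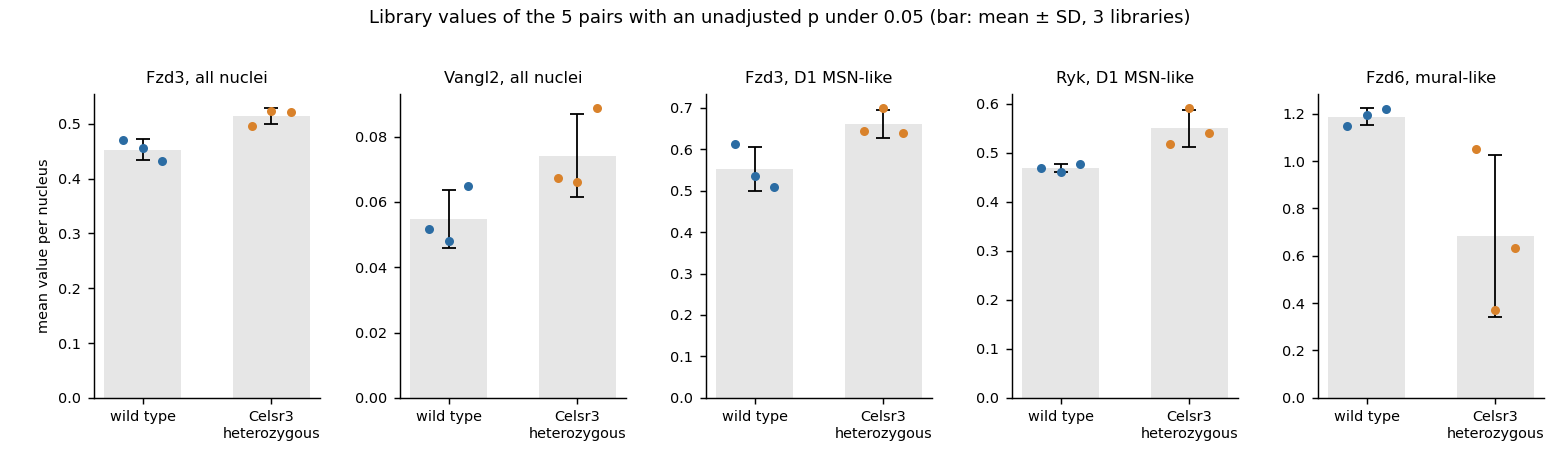
Mean value per nucleus (vertical axes from 0) of the 5 pairs of gene and population with an unadjusted p under 0.05, with 1 point per library, bars for the group mean and error bars for the SD of 3 libraries. The orange heterozygous points lie above the blue wild type points for Fzd3, Vangl2 and Ryk and below them for Fzd6 in mural-like nuclei, where they run from 0.37 to 1.05.

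Among the other classes, Fzd6 in mural-like nuclei was at 1.15, 1.2 and 1.22 in wild type and 1.05, 0.37 and 0.632 in heterozygous 1 to 3. The heterozygous libraries were all lower, as for 3.28% of all genes tested in this class, and spread far more than the wild type ones. The difference was -0.91 ± 0.31 log2 (SE, limma, adjusted p = 0.886), and without heterozygous 2 it was -0.54. There were 40 to 60 mural-like nuclei per library. Of the 8 endothelial markers 7 were above 0 in these nuclei, with Cdh5 at 0, and their summed level was 1.9 to 2.73 in wild type and 1.62 to 2.02 in heterozygous libraries. The sum of the 8 mural markers was 25.5 to 32.7 and 21 to 28.7, and the part of either in the Fzd6 values was not tested.

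Astrocyte-like nuclei had 2 of 10 genes with all heterozygous libraries higher, beside 7.25% of all genes. Prickle1 was at 0.581, 0.557 and 0.516 in wild type and 0.609, 0.647 and 0.667 in heterozygous 1 to 3 (0.21 ± 0.10 log2, SE, limma, adjusted p = 0.8), and Vangl1 had 0.31 ± 0.16 (adjusted p = 0.846), and neither gene separated the genotypes in any of the 3 astrocyte-like clusters. In oligodendrocyte-like nuclei Vangl2 was higher (0.27 ± 0.15 log2, 1 of 9 genes beside 5.96%) and Ryk lower (-0.09 ± 0.10, 1 of 9 beside 4.2%) in all heterozygous libraries, both at an adjusted p of 0.996. Vangl2 separated the genotypes in 2 of the 3 oligodendrocyte-like clusters and Ryk in 1. Prickle2 was higher in cholinergic interneuron-like nuclei (0.36 ± 0.16 log2, adjusted p = 0.91, 1 of 2 genes beside 5.43%). In GABAergic interneuron-like nuclei Dvl2 (-0.39 ± 0.19, adjusted p = 0.803) and Ryk (-0.13 ± 0.11, adjusted p = 0.917) were lower in all heterozygous libraries, 2 of 7 beside 5.92%. This class pooled 3 clusters, of which cluster 21 drew 38.4% of its nuclei from 1 library, and in none of the 3 did the genotypes separate for either gene. In cluster 21 Dvl2 was highest in heterozygous 2 (0.204 against 0.118 to 0.135 in wild type) and Ryk in heterozygous 3 (0.667 against 0.5 to 0.568). Of the 89 pairs tested, the genotypes did not overlap in 15, 11 higher and 4 lower in heterozygous libraries, beside 7.98% higher and 4.83% lower over the pairs of all genes tested. A further 81 pairs of gene and class had no test. Of the 61 below the filter on low values, 5 had all heterozygous libraries higher and 2 all lower, beside 3.83% and 4.57% of all untested pairs of the same classes and the same range of summed values. Of the 20 in ependymal-like and fibroblast-like nuclei, which were too few, 1 was higher and none lower, beside 5.14% and 4.12%. Heterozygous libraries were higher for Vangl2 in neuroblast-like (159% of wild type by the means), Prickle1 in ependymal-like (148%), Dvl3 and Ryk in cholinergic (147% and 177%) and Dvl2 in committed precursor-like and eccentric MSN-like nuclei (249% and 126%). They were lower for Vangl1 in D2 MSN-like nuclei (55.9%) and for Fzd6 in OPC-like nuclei, where 2 libraries were at 0. These 8 rest on low summed values and have no test.

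The rest of the pathway was read from 7 lists of 47 genes. Limma called 0 of 37 tested in all nuclei, 0 of 31 in the D1 and 0 of 29 in the D2 class, beside the shares of all genes given above, with median differences of 0.10, 0.05 and 0.07 log2. The unadjusted p was under 0.05 for 4, 4 and 3 genes, beside 9.86%, 9.69% and 8.61% of all genes tested, and of these only Dchs1, a polarity cadherin, was lower (D2 MSN-like, -0.43 ± 0.19). Smurf1, a ubiquitin ligase that degrades Prickle, was at 0.23 ± 0.09 in all nuclei, which include the other 2 populations, 0.33 ± 0.09 in the D1 and 0.38 ± 0.10 in the D2 class (SE, limma, adjusted p = 0.487, 0.318 and 0.29). The 3 populations come from the same libraries. Ror1, a Wnt co-receptor, was at 1.095 ± 0.39 in the D1 and 1.08 ± 0.39 in the D2 class (SE, limma, adjusted p = 0.416 and 0.482). Celsr2, another Celsr cadherin, was at 0.22 ± 0.07 in all nuclei and 0.27 ± 0.10 in D1 MSN-like nuclei (adjusted p = 0.468 and 0.418). The remaining genes were the ligand Wnt5a (0.56 ± 0.23) and the effector Intu (0.29 ± 0.08) in all nuclei and Smurf2 (0.33 ± 0.13) in D1 MSN-like nuclei, with adjusted p from 0.46 to 0.505. All are log2 differences, heterozygous minus wild type.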

How the data were processed

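Single-nucleus libraries of striatum were read from 1 table of 24841 genes and 48834 nuclei. Its unit is named a score here, since the deposited whole numbers are UMI values that the authors had already corrected for depth, as read from the values (the total per nucleus had a coefficient of variation of 10.7%, and 10% of nuclei had low genes at 2 or 3 and none at 1). Per the submitters' processing notes, Cell Ranger, Seurat 4.1 and the mm10 (GRCm38) build were used. The depth before correction is not given in the sources used here, so the number of genes per nucleus (1284 to 5263) stood in for it and no count model was used.

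Nuclei were clustered from 2000 variable genes and 30 principal components (15 neighbours, Leiden at resolution 1, scanpy 1.11.5, igraph 0.11.9), without the 10 genes and Celsr1 to Celsr3. Doublet-like nuclei (score over 0.25, or in clusters with over 40% such nuclei) were left out. A cluster of 50 or more nuclei was named X-like from at least 3 raised markers making up at least 1 in 3 of its list, where 1 or more stood among its 10 top genes (or 80% of the list was raised) and no other class had more there; these limits were chosen with the clusters in view, and other names are possible. Genes were tested with limma 3.58.1 (R 4.3.3, trended empirical Bayes) on log2(mean value per nucleus + 0.01) per library, where the mean was at least 0.02 and the summed value at least 30 per library on average, in each class of 20 or more nuclei per library. This scale understates the change of low genes. P values were adjusted by Benjamini-Hochberg over all genes tested in a population. Differences between classes were tested within libraries with the genotype as a term. In these fits, and in the D1 against D2 comparison of the genotype difference, the variance trend followed the mean difference between classes. It did not follow the level of a gene, and a trend on the level was not tried for them. The fits were also run on simulated data, with noise drawn from their own fitted variances. The changes planted there were larger than the genotype differences of the 10 genes in the main fits. That run therefore does not show how well such differences are found, and no result here rests on it. Alternatives were another pseudocount, no filter, size factors, library (array) weights, a replicate block, doublets kept, equal class weights and each library left out.

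The text names the 10 genes, Celsr3, from each pathway list up to 2 genes per population of smallest p under 0.05, and for each gene those of most alike levels. Genotype differences in other classes than D1 and D2 MSN-like are given where the unadjusted p was under 0.05 or the groups did not overlap, except Prickle2 in oligodendrocyte-like nuclei, chosen after its values were seen. The 10 genes, lists and tests were chosen with earlier results of these data known. The labels do not say whether replicate numbers pair the libraries, and the main fits did not pair them.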

Additional observations from a re-analysis of the deposited data

Results flagged for a closer look

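Among the pairs tested, 2 of the 10 genes had all heterozygous libraries on one side of wild type in one class and on the opposite side in another, as had 4.68% of the 13642 genes tested in 2 classes or more. Dvl2 differed by 0.22 log2 in D2 MSN-like and by -0.39 log2 in GABAergic interneuron-like nuclei. Ryk differed by 0.22 log2 in D1 MSN-like nuclei, by -0.13 in GABAergic interneuron-like and by -0.0936 in oligodendrocyte-like nuclei. The difference between these classes was not tested, and none of the 5 values passed within its own class (limma, adjusted p from 0.42 to 0.996). Within the 3 GABAergic interneuron-like clusters neither gene separated the genotypes. Vangl1 was at 129% of wild type in astrocyte-like nuclei, where it was tested and did not pass, and on the opposite side at 55.9% in D2 MSN-like nuclei, where it lay below the filter on low values and had no test. GABAergic interneuron-like nuclei numbered 182 to 400 per library, and heterozygous 1 gave the most.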

How the results depend on the processing

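No member was called by genotype in any population under any alternative except Fzd3 in D1 MSN-like nuclei, where library weights gave 1 member called (log2 0.36, limma, adjusted p = 0.0405). With the replicate block the count stayed at 0, and Fzd3 in D1 MSN-like nuclei had an adjusted p of 0.323 (limma). Residual correlations of same-numbered libraries were -0.0336, 0.143 and -0.0746 in all nuclei. They were 0.269, 0.0177 and 0.185 for the D1 class, and 0.258, 0.0489 and 0.174 for the D2 class. The same-numbered heterozygous library was the best match for wild type 2 in all nuclei, and for wild type 1 and 3 in both classes. With 3 libraries a group these values cannot decide whether the numbers pair the libraries. Over all genes, the block gave 4 calls in D2 MSN-like nuclei against 1, 0 against 1 in glutamatergic neuron-like and 1 against 0 in oligodendrocyte-like nuclei. Calls over all genes in D1 MSN-like nuclei were 2, 449 with library weights and 1 to 210 with a library left out (210 without wild type 1). In D2 MSN-like nuclei they were 1, 162 with library weights and 0 to 128 with a library left out (128 without wild type 1).

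Of the differences between classes, a pseudocount of 0.05 called 5 members against 3 for D1 minus D2 MSN-like nuclei. Without the filter, 5 against 3 were called for OPC-like minus oligodendrocyte-like and 0 against 1 for endothelial-like minus mural-like nuclei, where leaving out a library gave 1 to 2. It also ended the calls of Prickle1 in GABAergic minus MSN-like (adjusted p = 0.116) and Dvl3 in astrocyte-like minus MSN-like nuclei (0.051).

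Signs turned for small differences, and the cause was not tested. In all nuclei Vangl1 (-0.13) was 0.088 with equal class weights and -0.47 to 0.28 with a library left out, positive without heterozygous 1. Prickle1 in all nuclei was -0.0203 with size factors, -0.124 with library weights and -0.0357 to 0.138 with a library left out, negative without heterozygous 1. Dvl1 in all nuclei was -0.0173 with library weights, and Prickle2 0.00016 with equal class weights. Dvl1 in D1 MSN-like nuclei was -0.0163 with size factors and -0.042 to 0.133 with a library left out, negative without heterozygous 2. For Fzd3, D1 minus D2 MSN-like was -0.0153 to 0.00896 with a library left out, positive without wild type 1 and, at 0.0037, without heterozygous 1. For Dvl2, glutamatergic neuron-like minus MSN-like was 0.000471 with a pseudocount of 0.05, 0.00909 with doublets kept and -0.0783 to 0.097 with a library left out, positive without heterozygous 3 and, at 0.0783, without wild type 2. The depth behind each value is unknown.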
